A study of Mus musculus with 12 samples.

Results

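Chemokines are small secreted proteins that guide leukocytes through tissue, and chemokine receptors are the cell-surface proteins that read them. The genes of this family were chosen by symbol alone: every gene whose mouse symbol is Ccl, Cxcl, Cx3cl, Xcl, Ccr, Cxcr, Cx3cr, Xcr or Ackr followed by a number. There were 70 such genes among the 47729 in the deposited table, 47 for chemokines and 23 for receptors. Reads were too few to test 30 of them, which left 40 tested genes, 24 for chemokines and 16 for receptors, among 15336 tested in all.

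The study sequenced poly(A) RNA from the hearts of male C57/BL6 mice aged 8 weeks in 4 groups of 3 libraries, 12 libraries in all, and the values are read counts for each gene. Osmotic pumps under the skin delivered saline (the controls) or angiotensin II (Ang II), the pressor peptide of the renin-angiotensin system, for 28 days. In the last 2 weeks, Ang II mice were given vehicle (the Ang II group), oral EHP-101 at 20 mg/kg or losartan at 0.6 g/L in drinking water. EHP-101 is an oral form of a cannabidiol derivative with activity at PPARγ, a nuclear receptor, and at CB2, a cannabinoid receptor on leukocytes. Losartan is an antagonist of AT1, the main receptor for Ang II. Control titles add the phrase Ang II control, here read as the saline arm of the design. Nothing in the labels says that the 3 libraries of a group came from separate animals, so the p-values measure the spread between these libraries, which may be technical.

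A chemokine binds a G protein-coupled receptor on a leukocyte, and the cell moves up the gradient. CCR2 and its ligands bring monocytes out of the bone marrow and into tissue, CXCR2 and its ligands bring neutrophils, and CXCR3 and its ligands act on T cells. CXCL12 with CXCR4 holds stem cells and leukocytes in place, and the atypical receptors take up chemokines without signalling through G proteins. In hypertensive and fibrotic hearts the family is known for the recruitment of monocytes that become macrophages.

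Many inflammatory chemokine genes are known targets of NF-κB and of interferon signalling, so the sequence before the start of 4 chemokine genes with higher mean levels in the Ang II group than in every other group is shown from RefSeq (GRCm38.p6, sense strand of the gene). The 70 genes carry 65 distinct symbols, of which 46 had an entry, 28 of them tested. Capitals mark matches, on either strand, to a κB motif (GGANTTTCC), an interferon-stimulated response element (GAAANNGAA) or a TATA box (TATAAA).
Cxcl1 (chr5:90891125-90891240, plus strand): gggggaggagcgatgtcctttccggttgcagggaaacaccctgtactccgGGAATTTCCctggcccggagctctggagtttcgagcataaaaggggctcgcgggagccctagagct
Cxcl2 (chr5:90903779-90903870, plus strand): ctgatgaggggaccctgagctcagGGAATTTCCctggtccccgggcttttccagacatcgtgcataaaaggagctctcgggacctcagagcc
Cxcl10 (chr5:92348890-92349139, minus strand): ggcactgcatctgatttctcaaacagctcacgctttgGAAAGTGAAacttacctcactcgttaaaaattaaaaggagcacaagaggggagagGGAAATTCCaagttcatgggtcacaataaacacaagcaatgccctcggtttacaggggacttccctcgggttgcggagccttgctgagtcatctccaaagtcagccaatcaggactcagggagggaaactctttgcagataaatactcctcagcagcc
Cxcl13 (chr5:95956819-95956938, plus strand): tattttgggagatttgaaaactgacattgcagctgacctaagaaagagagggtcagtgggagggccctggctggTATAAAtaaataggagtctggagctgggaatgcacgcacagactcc

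In Cxcl1 and Cxcl2 the κB match is the same run of letters, GGAATTTCC, and in Cxcl10 it lies on the other strand. No 2 matches overlap. The κB motif occurred in the 250 bases before the start of 1.07% of 32851 RefSeq entries. Among the tested family members it occurred in 3 of 28: Cxcl1, Cxcl2 and Cxcl10. The letters of the interferon element occurred in 7.13% of entries and in 5 tested members: Cxcl10, Cxcl9, Cxcl14, Ccl19 and Ccr2. The letters TATAAA, on either strand and anywhere in the 250 bases, occurred in 12.4% of entries and in 11 tested members. Their place varied, with Cx3cl1 at -6 to -1 and Cxcl9 at -195 to -190 from the start, so a match need not be a TATA box. The 4 windows and 3 motifs were picked from 7 patterns searched, after the matches and the expression values had been seen, so these counts describe the letters and nothing was tested with them.

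Total counts ran from 22155418 in control 2 to 24040516 in Ang II 3, and the family took 0.0426% to 0.0785% of them. Cardiomyocyte markers (Myh6, Actc1, Tnnt2, Tnni3 and Ryr2) summed to 36312.5 to 49241.5 CPM (a gene's reads over the scaled total of its library, a unit for setting libraries side by side, not genes of different length) in each library. Control 2 stood apart from the other libraries: on the first principal component of all tested genes, which held 35.3% of the variance, it lay at -84.4 and the others between -12.7 and 32.4. Atrial cardiomyocyte markers summed to 1182, 282 and 1735 CPM in controls 1 to 3 and to 2595, 1827 and 1429 CPM in Ang II. Under EHP-101 they summed to 476, 488 and 1037 CPM, each below every Ang II library. Losartan libraries were at 310, 1966 and 55.6 CPM and overlapped Ang II. The part of atrial tissue in the results was not tested.

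Levels per length used all annotated exons of a gene merged, which can be longer than a single transcript. On this scale, expression of the family in the heart was led by a homeostatic chemokine and a scavenging receptor. Cxcl12, which retains stem cells and leukocytes, averaged 37.5 CPM per kb of exon, and Ackr3, the atypical receptor that removes CXCL12, averaged 30.9. Next came Ccl6, a CCR1 ligand, at 9.77, Ccl8, grouped here with the CCR2 ligands and in the mouse also known to act on CCR8, at 9.18, Cxcl14, made by many epithelial and stromal cells, at 5.16 and Cxcr4, the signalling receptor for CXCL12, at 4.84. The lowest tested gene was Xcr1, a receptor of cross-presenting dendritic cells, at 0.128 CPM per kb.

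**Figure D1:**
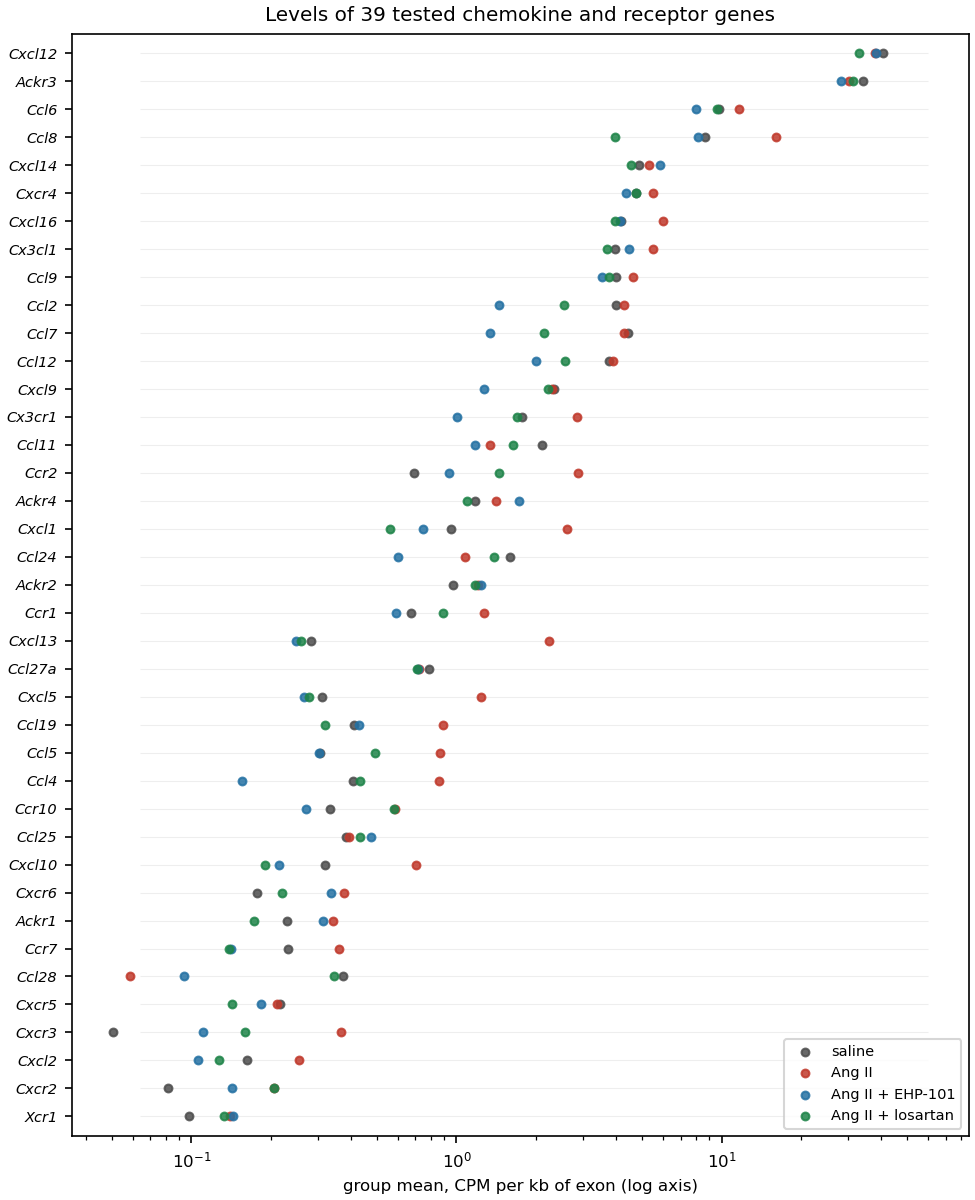
Mean level of 39 of the 40 tested genes in each group, in CPM per kb of exon on a log axis, ordered by the mean over 12 libraries. Cxcl12 (37.5) and Ackr3 (30.9) lead, and their group means lie close together, while those of Cxcl13, Cxcr3, Cxcl1 and Ccr2 are spread out with Ang II highest.

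Among the leading genes, Cxcl12, Ackr3, Cxcr4 and Cxcl14 showed little difference between groups. Cxcl12 stood at 352, 248 and 399 CPM in controls 1 to 3 and at 297, 298 and 338 CPM in Ang II 1 to 3. It was at 313, 318 and 307 CPM under EHP-101 and at 195, 301 and 316 CPM under losartan. All 4 groups overlapped. Ackr3 was at 106, 150 and 86.1 CPM in controls, 93.5, 102 and 108 CPM in Ang II, 103, 95.2 and 83.8 CPM under EHP-101 and 106, 102 and 107 CPM under losartan. All groups overlapped here too. Cxcr4 ran from 6.05 to 11 CPM over the 12 libraries and Cxcl14 from 7.32 to 13.3 CPM, again with overlapping groups for Ang II against control. Ccl8 differed more. It was at 6.3, 5.86 and 12.3 CPM in Ang II and 2.32, 2.55 and 1.18 CPM under losartan, without overlap.

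In the Ang II group 2 receptor genes were called higher. Of the 40 tested members, Ccr2 and Cxcr3 passed an adjusted p of 0.05 (edgeR quasi-likelihood test, Benjamini-Hochberg over all tested genes), both higher, against 0.541% of all tested genes called in either direction. No chemokine gene passed in edgeR, where 7 were higher at an unadjusted p below 0.05. DESeq2 called 4 members among 505 genes, with Ccr2, Cxcl1 and Cxcl13 in the 4, and gave no adjusted p for Cxcr3. Limma-voom called 1 member among 51 genes, and with quality weights 14 members among 2617 genes. At an unadjusted p below 0.05 there were 10 members higher and 0 lower, 25% of the members tested, against 9.09% of all tested genes that were higher at that p. Without Ang II 3 the 10 became 6, against 5.55% of all tested genes. Without control 2 they became 12, with 1 lower, against 7.52% of all tested genes higher. Without TMM scaling 18 members were higher and 0 lower, where 15.2% of all tested genes were higher and 2.24% lower. The groups did not overlap for 12 members that were higher and 1 that was lower (Ccl24), against 12.3% of all tested genes higher and 10.3% lower. The median log2 fold change of the tested members was 0.53, and that of all tested genes -0.00068. A gene that passes the filter only through the group where it is high had to differ, so these counts over tested members are a description.

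Ccr2, the monocyte receptor for CCL2, CCL7 and CCL12, was the abundant one of the pair. It stood at 5.09, 2.85 and 6.09 CPM in controls and at 16.9, 12.3 and 28.9 CPM in Ang II. It was at 8.67, 3.97 and 6.44 CPM under EHP-101 and at 13.2, 9.16 and 6.92 CPM under losartan. Every Ang II library lay above every control and every EHP-101 library, while losartan 1 lay above Ang II 2. The Ang II mean was 19.4 ± 8.55 CPM (SD, n = 3) against 4.68 ± 1.66 CPM in controls, a log2 fold change of 2.04 ± 0.38 (SE; edgeR adjusted p = 0.039), or 4.11-fold.

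Cxcr3, a receptor of activated T cells and NK cells for CXCL9 and CXCL10, was called from a very low level. Its counts were 3, 1 and 2 reads in controls and 12, 15 and 22 reads in Ang II. Under EHP-101 they were 4, 4 and 5 reads and under losartan 6, 9 and 4 reads. These correspond to 0.125, 0.0538 and 0.0834 CPM in controls and 0.456, 0.623 and 0.825 CPM in Ang II. No Ang II library overlapped any library of the 3 other groups. The log2 fold change against control was 2.75 ± 0.47 (SE; edgeR adjusted p = 0.0251), on 87 reads in all, the fewest of any tested member. Cxcr3 reached the level the filter asks for (10 reads at the median depth, in 3 libraries) in the Ang II libraries alone, the only 1 of the 40 tested members to do so. It was thus tested through the group where it is high, and its p is a description. Ackr1, Cxcl2, Ccl4 and Ccr7 also passed the filter only with Ang II libraries counted. Cxcr3 was also called by edgeR with no filter on low counts, and over 20 alternatives its adjusted p ran from 0.00229 to 0.145. Leaving out control 1, 2 or 3, or Ang II 1 or 3, ended both calls.

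**Figure D2:**
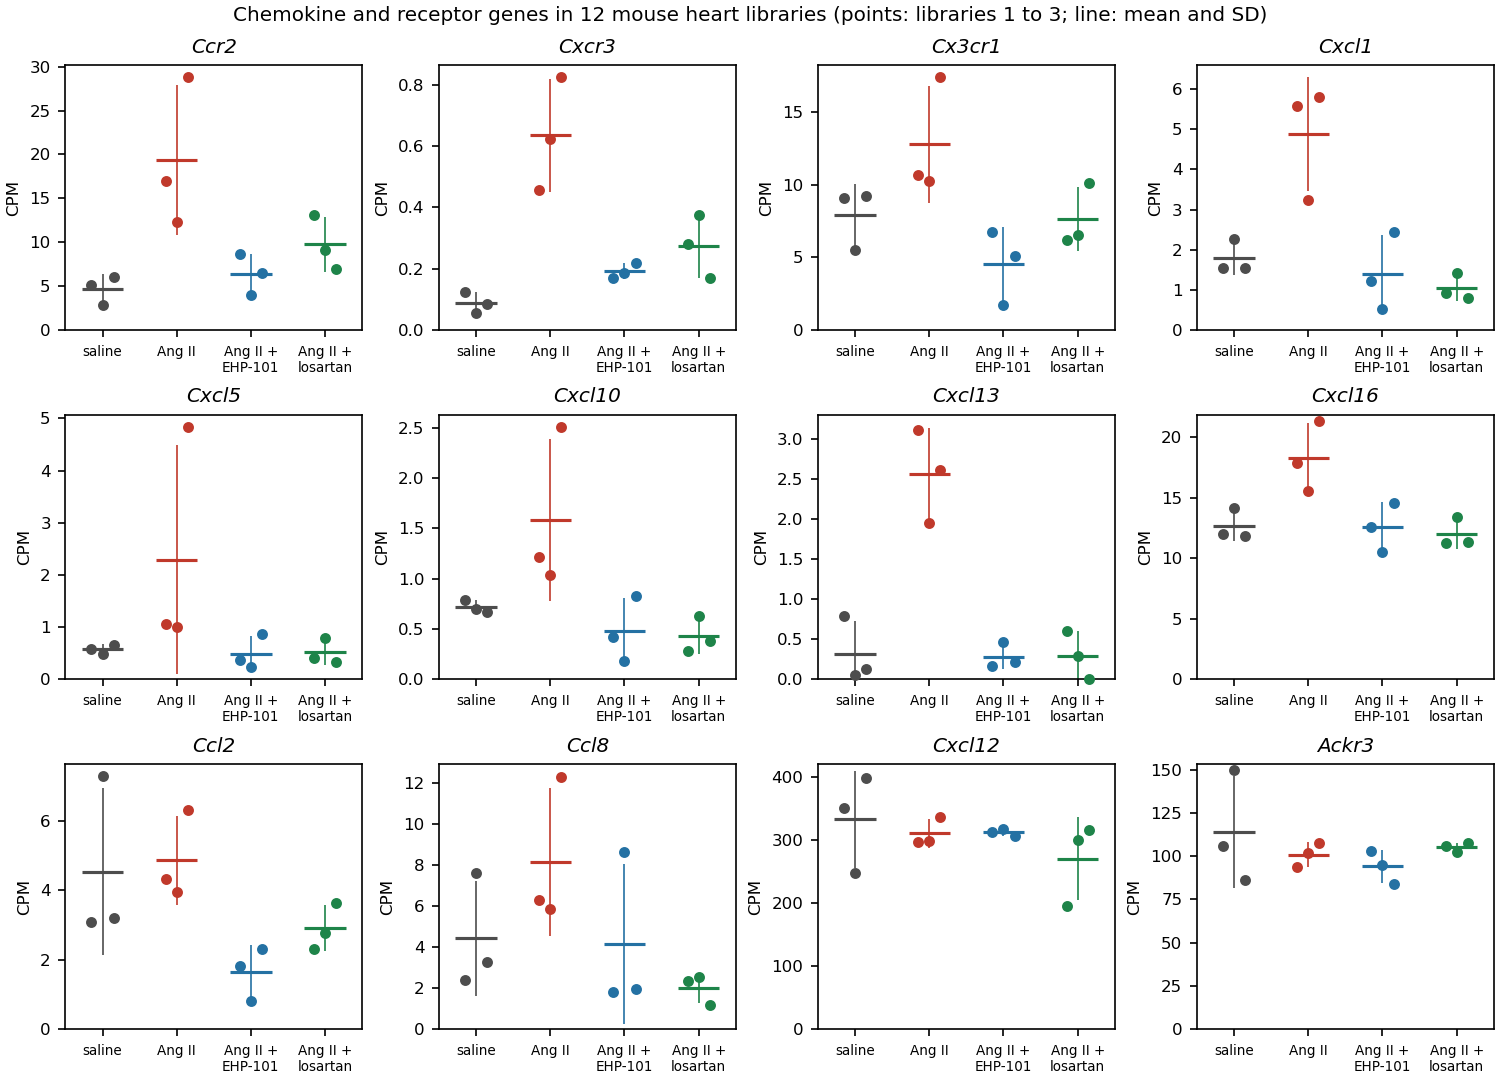
CPM of 12 chemokine and receptor genes in each library (points, replicates 1 to 3 from left to right), with the group mean and SD. Ccr2, Cxcr3, Cxcl1, Cxcl13 and Cxcl16 are higher in every Ang II library than in every control, and Cxcl12 and Ackr3 overlap between groups.

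Markers of leukocytes are given beside these receptors. The 6 monocyte markers summed to 269 to 302 CPM in controls and 367 to 663 CPM in Ang II. With EHP-101 they summed to 327 to 369 CPM, and with losartan to 252 to 332 CPM. Nearly all of the sum was Fn1, a matrix gene that fibroblasts also express, and Lyz2, a lysozyme gene of monocytes and macrophages. Fn1 was at 28.4 to 127 CPM in controls and 198 to 418 CPM in Ang II. Lyz2 was at 179, 268 and 140 CPM in controls and 176, 165 and 232 CPM in Ang II, and the groups overlapped. Without Fn1 the sum was 143 to 273 CPM in controls and 169 to 245 CPM in Ang II, again with an overlap, so the higher sum in Ang II was carried by Fn1. The remaining markers together made up 2.34 to 4.9 CPM in controls and 4.36 to 13 CPM in Ang II. Ly6c2, a defining monocyte gene, was at 0.125 to 0.418 CPM in controls and 0.332 to 1.54 CPM in Ang II. The 11 macrophage markers summed to 337 to 363 CPM in controls and 340 to 418 CPM in Ang II, and the groups overlapped. The 7 T cell markers summed to 3.39 to 4.26 CPM in controls and 5.11 to 6.93 CPM in Ang II, with Cd3e at 0.0831 to 0.45 CPM in Ang II. None of the 6 monocyte or 5 tested T cell markers passed the test in Ang II against control, and at an unadjusted p below 0.05 there were 3 and 0. Of all tested genes, 17.6% were at that p in either direction. The part of these markers in the receptor results was not tested. In whole-heart RNA, more cells of a type and more RNA per cell cannot be told apart.

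**Figure D3:**
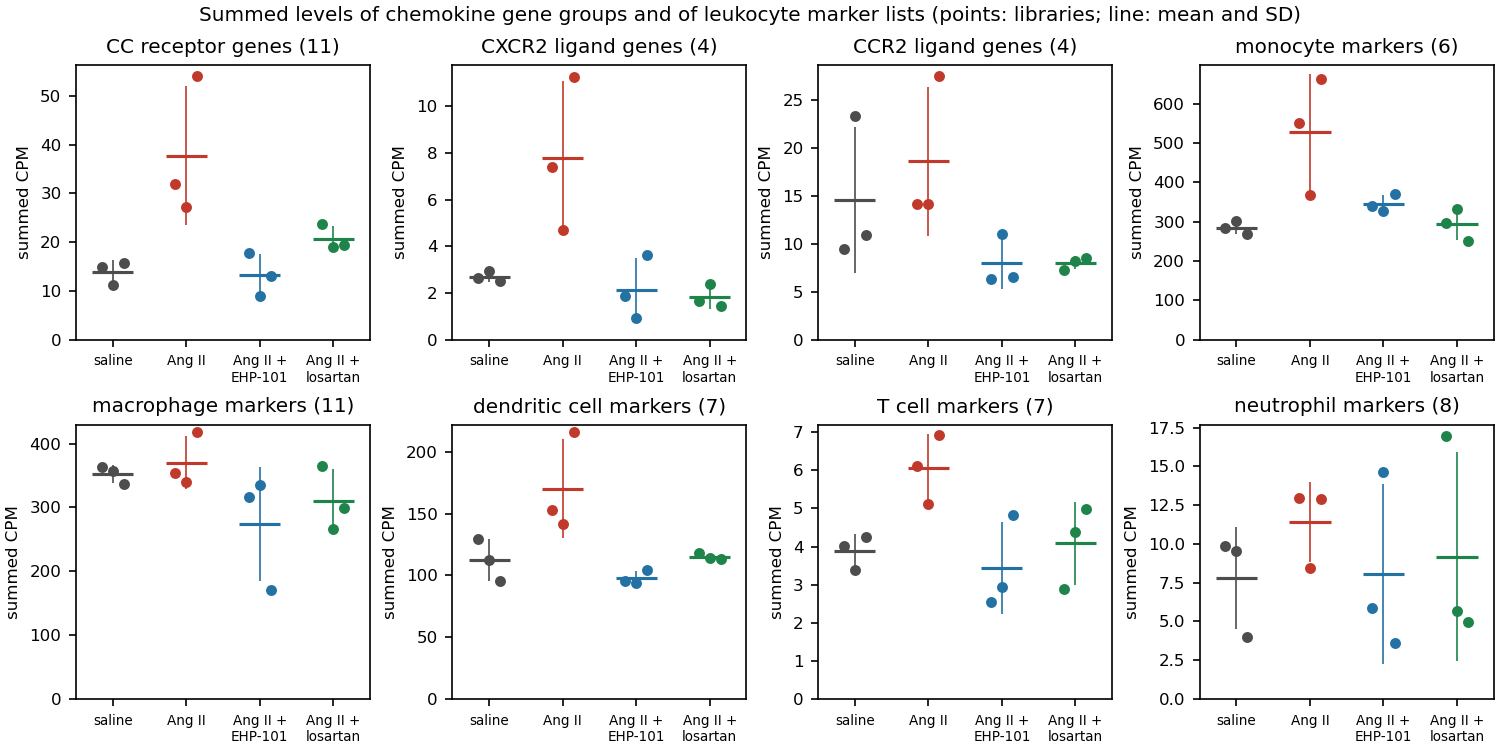
Summed CPM per library for 3 groups of chemokine and receptor genes and 5 lists of leukocyte markers (number of genes in brackets), with group mean and SD. The CC receptor and monocyte marker sums are both highest in Ang II 3, at 54 and 663 CPM. Of the latter 418 CPM were Fn1 and 232 CPM Lyz2, and Lyz2 was higher in control 2, at 268 CPM. Neutrophil marker sums overlap between all groups.

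Cx3cr1, the fractalkine receptor of patrolling monocytes and resident macrophages, did not pass. It was at 9.1, 5.49 and 9.22 CPM in controls and 10.7, 10.3 and 17.5 CPM in Ang II. Its EHP-101 libraries were at 6.77, 1.73 and 5.12 CPM and its losartan libraries at 6.23, 6.57 and 10.2 CPM. Each Ang II library was above all others, with a log2 fold change against control of 0.69 ± 0.38. All 5 tested CC receptors had a log2 fold change above 0, from 0.64 for Ccr7 to 2.04 for Ccr2.

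The CXCR2 ligands, which attract neutrophils, were higher in Ang II without passing the test. Cxcl1 was at 1.54, 2.26 and 1.54 CPM in controls and 5.58, 3.24 and 5.81 CPM in Ang II, with a log2 fold change of 1.46 ± 0.42 (edgeR adjusted p = 0.147). Cxcl5 was at 0.585, 0.484 and 0.668 CPM in controls and at 1.06, 0.997 and 4.83 CPM in Ang II (1.98 ± 0.63, edgeR adjusted p = 0.181). All Ang II libraries of both genes lay above the controls, and for Cxcl5 library 3 made up most of the group mean of 2.3 CPM. Cxcl2, whose window carries the same run of capitals as that of Cxcl1, was at 0.215 to 0.501 CPM in controls and 0.374 to 0.759 CPM in Ang II, and the groups overlapped. Neutrophil markers did not separate: their sum was 4.01 to 9.9 CPM in controls and 8.43 to 12.9 CPM in Ang II, and Ly6g was at 0 in each library but Ang II 1.

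Among the remaining chemokines, Cxcl13 differed by the largest fold. This B cell attractant of lymphoid follicles was at 0.793, 0.0538 and 0.125 CPM in controls and at 3.11, 1.95 and 2.62 CPM in Ang II. It was at 0.169, 0.468 and 0.219 CPM under EHP-101 and at 0.604, 0.293 and 0 CPM under losartan. Each Ang II library exceeded all 9 others, and the log2 fold change against control was 2.91 ± 0.75 (edgeR adjusted p = 0.117). B cell markers summed to 17.5 to 22.6 CPM in controls and 20 to 30.6 CPM in Ang II, and their part was not tested. Cxcl16, a membrane-bound ligand of CXCR6, was at 12, 14.1 and 11.8 CPM in controls and 17.8, 15.5 and 21.3 CPM in Ang II (0.53 ± 0.16, edgeR adjusted p = 0.155). Cx3cl1, fractalkine, was at 15.5 to 15.7 CPM in controls and 19.1 to 23.6 CPM in Ang II. Ccl5, an attractant of T cells and monocytes, was at 0.459, 0.215 and 0.209 CPM in controls and 1.03, 0.374 and 1.09 CPM in Ang II (1.47 ± 0.50, edgeR adjusted p = 0.199), and its groups overlapped.

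The ligands of CCR2 overlapped between Ang II and control. Ccl2, the main monocyte attractant, was at 3.09, 7.32 and 3.21 CPM in controls and 4.33, 3.95 and 6.33 CPM in Ang II, and control 2 was the highest of all 12 libraries. Ccl8 was at 2.38, 7.64 and 3.25 CPM in controls and 6.3, 5.86 and 12.3 CPM in Ang II, again with an overlap through control 2. Log2 fold changes of the 4 genes ran from -0.04 for Ccl7 to 0.90 for Ccl8, and 0 of 4 had an unadjusted p below 0.05. The overlap of Ccl2 and Ccl8 rests on control 2, the library that stood apart. Without it, every Ang II library of both genes lay above the controls that remain. The log2 fold change was then 1.53 ± 0.69 for Ccl8 (edgeR adjusted p = 0.411), 0.63 ± 0.34 for Ccl2 (edgeR adjusted p = 0.485) and 1.79 ± 0.44 for Ccr2 (edgeR adjusted p = 0.151). Ccl7 and Ccl12 still overlapped without control 2, at 0.34 ± 0.47 (edgeR adjusted p = 0.818) and 0.47 ± 0.39 (edgeR adjusted p = 0.664). The difference between receptor and ligands was not tested. Among the interferon-induced CXCR3 ligands, Cxcl10 was at 0.793, 0.7 and 0.668 CPM in controls and 1.22, 1.04 and 2.51 CPM in Ang II, whereas Cxcl9 was at 6.17 to 8.72 CPM in controls and 5.89 to 8.27 CPM in Ang II. The eotaxins, which attract eosinophils, had log2 fold changes below 0: -0.67 ± 0.38 for Ccl11 and -0.56 ± 0.37 for Ccl24.

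**Figure D4:**
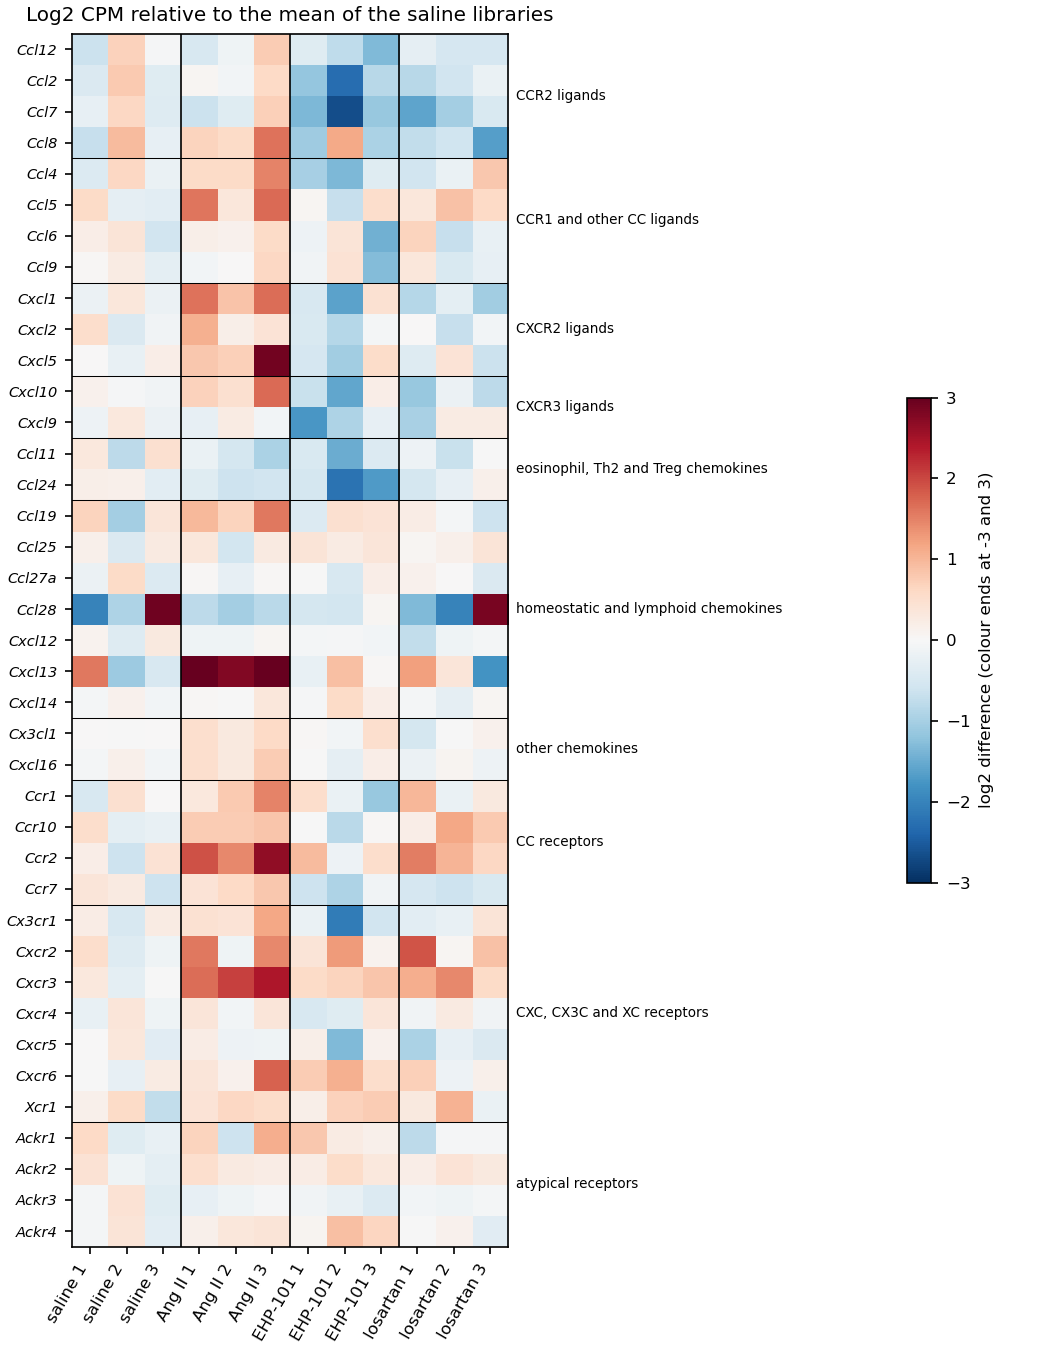
Log2 CPM of 39 of the 40 tested genes in each library minus the mean of the 3 saline libraries, grouped by role, with colours ending at -3 and 3. Ang II columns are red for Ccr2, Cxcr3, Cxcl1 and Cxcl13, while Ccl7 and Ccl12 are below 0 in Ang II 1 and 2. Ang II 3 is the highest library for 19 of the 39 genes drawn. That count was not made over all tested genes.

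Many members were highest in the same Ang II library. Of the 40 tested genes, 22 were highest in the Ang II group, 20 of them in Ang II 3. Within the Ang II group, library 3 was highest for 28 genes, library 1 for 10 and library 2 for 2. At the other end, 17 genes were lowest in EHP-101 2. These counts were not made over all tested genes, so they describe the members alone. Ang II 3 also had the highest sums of monocyte, macrophage, dendritic cell and T cell markers, and whether these account for its chemokine levels was not tested.

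With EHP-101, no member passed against Ang II, and no gene of the 15336 tested did (0% called by edgeR). At an unadjusted p below 0.05, 19 of 40 members were lower and 0 higher, 47.5% of the members tested, against 5.11% of all tested genes that were lower at that p. For 17 members every EHP-101 library lay below every Ang II library, and for 1 (Ccl28) above. Of all tested genes, 9.74% lay wholly below Ang II and 7.01% wholly above. The median log2 fold change of the tested members was -0.84 and that of all tested genes 0.00025. The comparisons of EHP-101, losartan and saline with Ang II use the same 3 Ang II libraries and are not independent. Cxcr3, Ccl4, Ccr7 and Cxcl2, all among the 19, passed the filter only with Ang II libraries counted. These counts over tested members are therefore a description. Without Ang II 3 there were 15 members lower at an unadjusted p below 0.05, against 2.77% of all tested genes. Without TMM scaling there were 21, against 10.1% of all tested genes lower and 0.587% higher. DESeq2 called 5 members among 60 genes, with all 5 lower and Ccl2, Ccr2, Cxcl1 and Cxcl13 in the 5. Limma-voom called 0 members and 0 genes, with or without quality weights.

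The 5 tested CC receptor genes had unadjusted p-values below 0.05 in EHP-101 against Ang II, all lower. The log2 fold change was -1.09 for Ccr1. For Ccr2 it was -1.60 ± 0.37 (edgeR adjusted p = 0.328) and for Cxcr3 -1.70 ± 0.41 (edgeR adjusted p = 0.328). Cx3cr1 differed by -1.49 ± 0.40 (edgeR adjusted p = 0.352). Ccr7, which leads dendritic cells and T cells to lymph nodes, was at 0.608, 0.706 and 0.825 CPM in Ang II and 0.254, 0.187 and 0.394 CPM under EHP-101. Ccr10, a receptor for skin and mucosal homing, was at 0.987, 0.997 and 1.05 CPM in Ang II and 0.55, 0.281 and 0.569 CPM under EHP-101. In both genes the groups were apart. Macrophage markers summed to 171 to 335 CPM under EHP-101 and 340 to 418 CPM in Ang II, and dendritic cell markers to 94.2 to 104 and 142 to 216 CPM; their part in these differences was not tested.

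On the ligand side, Cxcl1 under EHP-101 was at 1.23, 0.514 and 2.45 CPM, all below Ang II, with a log2 fold change of -1.80 ± 0.43 (edgeR adjusted p = 0.328). Ccl2 was at 1.82, 0.795 and 2.32 CPM, below every Ang II and every control library. Its log2 fold change was -1.56 ± 0.41 against Ang II (edgeR adjusted p = 0.339) and -1.44 ± 0.41 against control (edgeR adjusted p = 0.138). Ccl7, a related CCR2 ligand, was at 1.27, 0.468 and 1.49 CPM under EHP-101 against 2.84, 5.27 and 2.59 CPM in controls. Ccl4, a ligand made by activated macrophages, was at 0.418, 0.415 and 0.862 CPM in Ang II and 0.0846, 0.0468 and 0.175 CPM under EHP-101, where it rests on few reads (-2.40 ± 0.64, edgeR adjusted p = 0.352). Cxcl13 differed by -3.16 ± 0.77 (edgeR adjusted p = 0.328). Ccl8 overlapped between the groups: EHP-101 2 was at 8.65 CPM while libraries 1 and 3 were at 1.82 and 1.97 CPM.

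Losartan libraries were also below Ang II for many members, with none passing against Ang II, nor any gene of the 15336 (0% called by edgeR). There were 13 members lower and 0 higher at an unadjusted p below 0.05, 32.5% of the members tested, against 6.14% of all tested genes that were lower at that p. For 16 members the losartan libraries lay wholly below Ang II, against 10.5% of all tested genes, and the median log2 fold change was -0.59. Without Ang II 3 the 13 became 8, against 3.22% of all tested genes. Without TMM scaling they became 16, against 9.94% lower and 0.665% higher. The counts over tested members are again a description, since some members, such as Ccr7, passed the filter only with Ang II libraries counted. DESeq2 called 2 members, Cxcl1 and Cxcl13, both lower, among 108 genes. Limma-voom called 0 members and 0 genes, and with quality weights 10 members, all lower, among 598 genes. Under losartan Cxcl1 was at 0.93, 1.42 and 0.801 CPM, which is a log2 fold change of -2.21 ± 0.44 (edgeR adjusted p = 0.166). Cxcl13 differed by -3.11 ± 0.77 (edgeR adjusted p = 0.265) and Cxcl10, at 0.279, 0.627 and 0.379 CPM, by -1.87 ± 0.49 (edgeR adjusted p = 0.294). Cxcl16 was at 11.2, 13.4 and 11.3 CPM (-0.61 ± 0.16, edgeR adjusted p = 0.294), and Ccr7 at 0.279, 0.251 and 0.295 CPM (-1.36 ± 0.39, edgeR adjusted p = 0.343). For Ccr2 the losartan and Ang II libraries overlapped, with a log2 fold change of -0.99 ± 0.36.

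**Figure D5:**
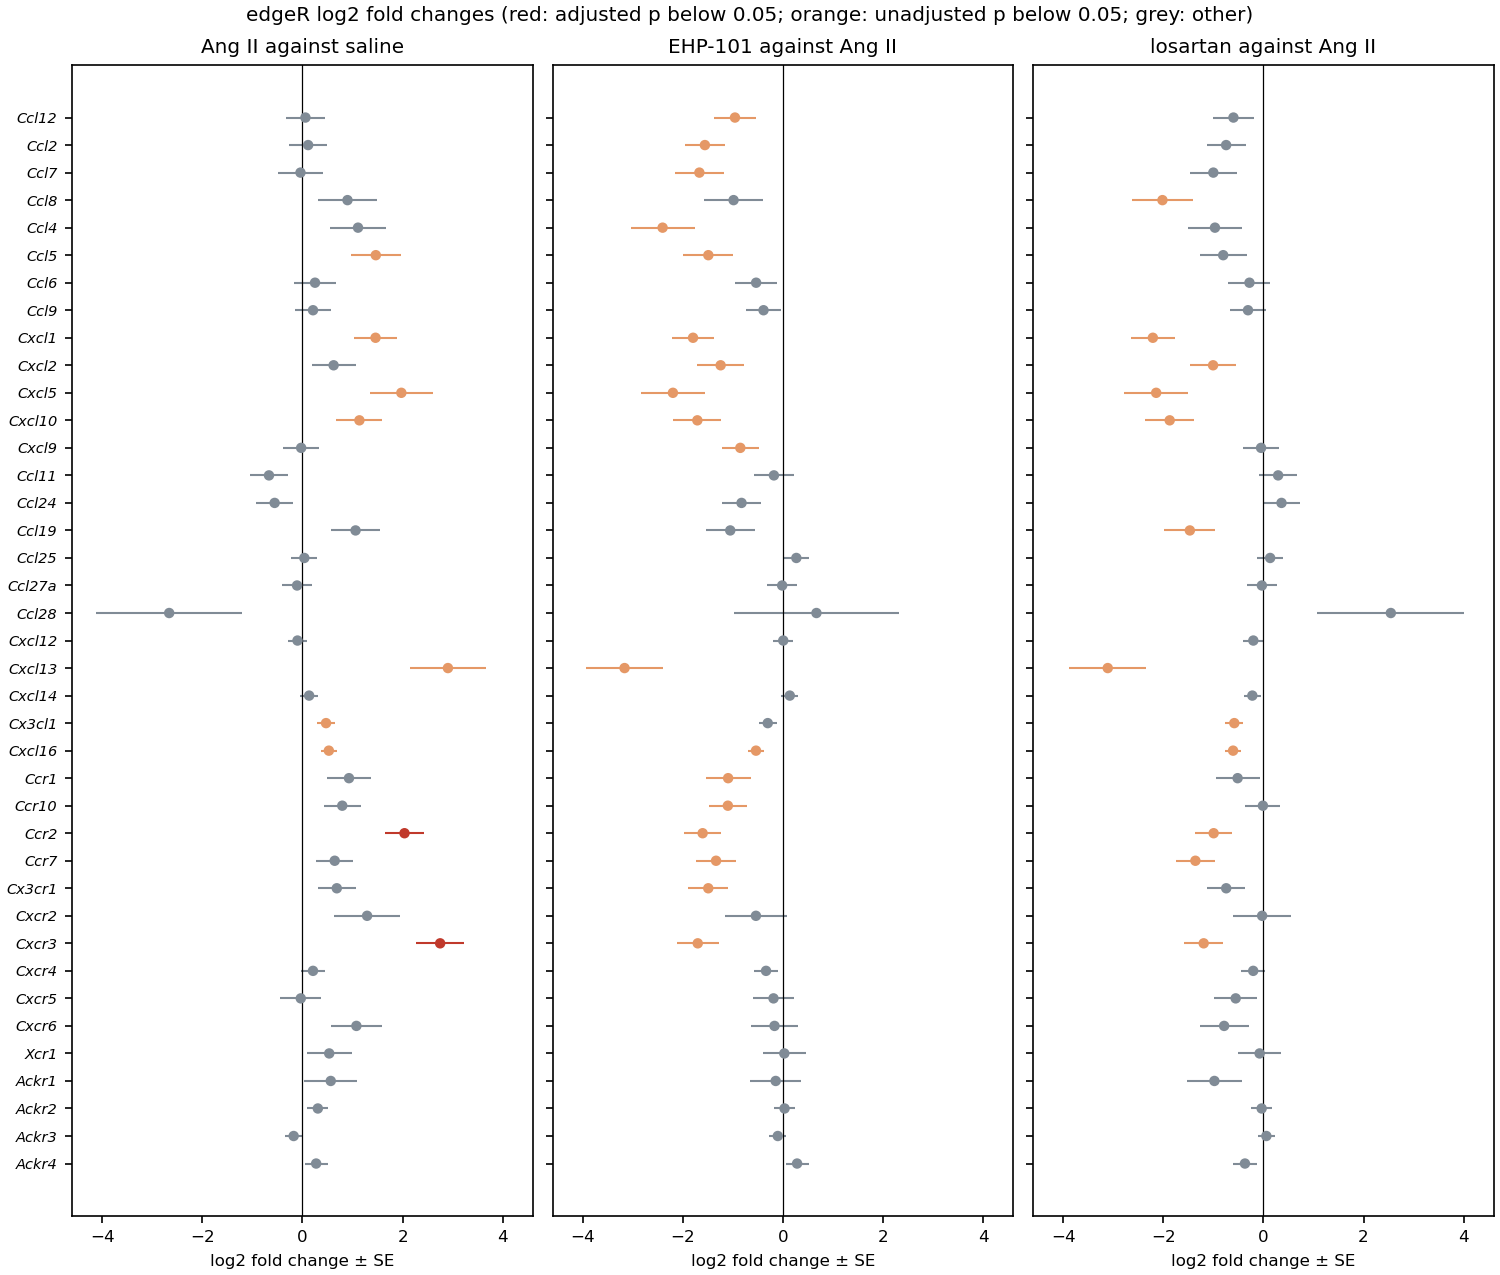
Log2 fold change ± SE of 39 of the 40 tested genes in 3 comparisons, from the edgeR fit, with red for an adjusted p below 0.05 and orange for an unadjusted p below 0.05. Only Ccr2 and Cxcr3 in Ang II against saline are red, and the 18 orange genes under EHP-101 and 12 under losartan all lie below 0.

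Compared directly, EHP-101 and losartan differed in no member by adjusted p, and in no gene tested (0% called by edgeR). DESeq2 and limma-voom also called 0 members, among 25 and 0 genes called. At an unadjusted p below 0.05, 1 member was higher and 4 lower under EHP-101, 12.5% of the members tested against 6.04% of all tested genes. Leaving out EHP-101 1 gave 3 higher and 5 lower, against 6.46% of all tested genes. Leaving out EHP-101 2 gave 0 higher and 1 lower, against 4.46%. Ccr10 was lower in each EHP-101 library than in each losartan library (-1.09 ± 0.38, edgeR adjusted p = 0.744), at 0.651, 1.34 and 1.01 CPM under losartan. Ccl24, eotaxin-2, was at 1.4, 0.374 and 0.569 CPM under EHP-101 and 1.39, 1.71 and 2.28 CPM under losartan, with an overlap in EHP-101 1 (-1.19 ± 0.39, edgeR adjusted p = 0.707). Cxcl9 was at 2.03, 3.65 and 5.82 CPM under EHP-101 and 3.49, 8.32 and 8.22 CPM under losartan (-0.80 ± 0.37, edgeR adjusted p = 0.818). The gene that was higher was Ackr4, the scavenger of CCL19, CCL21 and CCL25, at 6.51, 11.6 and 9.63 CPM under EHP-101 and 6.09, 6.73 and 4.85 CPM under losartan (0.65 ± 0.23, edgeR adjusted p = 0.744).

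Against saline, neither treated group had a member past the threshold in edgeR, with 0.398% of all tested genes called for EHP-101 and 0% for losartan. DESeq2 called 3 members lower under EHP-101 (Ccl2, Ccl7 and Ccl24) among 492 genes, and 0 under losartan among 22. Under EHP-101, 5 members were lower at an unadjusted p below 0.05 (Ccl2, Ccl7, Ccl24, Cxcl9 and Ccl11) and 1 was higher (Ackr4), 15% of the members tested against 16.9% of all tested genes. Ccl24 was at 2.3, 2.26 and 1.63 CPM in controls, above each EHP-101 library (-1.38 ± 0.39, edgeR adjusted p = 0.138). Under losartan, 2 receptors were higher than in saline at an unadjusted p below 0.05, Cxcr3 at 1.56 ± 0.53 and Ccr2 at 1.04 ± 0.38 (both edgeR adjusted p = 0.456), and Ccl7 was lower at -1.04 ± 0.47. That is 7.5% of the members tested, against 10.7% of all tested genes. Cxcr2, the neutrophil receptor, was at 0.376, 0.161 and 0.209 CPM in controls and 1.12, 0.251 and 0.506 CPM under losartan, with an overlap (1.27 ± 0.67).

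Ccl19, a ligand of CCR7 with pseudogene copies, was at 0.683, 0.54 and 1.09 CPM in Ang II. It was at 0.211, 0.468 and 0.438 CPM under EHP-101 (-1.05 ± 0.49, edgeR adjusted p = 0.698) and at 0.372, 0.293 and 0.169 CPM under losartan (-1.47 ± 0.51, edgeR adjusted p = 0.418). Ang II lay wholly above both treated groups and overlapped the controls. Ccl12, a mouse ligand of CCR2, was at 1.33, 1.7 and 3.22 CPM in Ang II and at 1.44, 1.08 and 0.7 CPM under EHP-101, with an overlap (-0.96 ± 0.41, edgeR adjusted p = 0.64). Cxcr5, the CXCL13 receptor of B cells, was at 0.835, 0.623 and 0.637 CPM in Ang II, above each losartan library at 0.325, 0.585 and 0.506 CPM (-0.55 ± 0.43, edgeR adjusted p = 0.797). Ccl6 ran from 6.13 CPM in EHP-101 3 to 27 CPM in losartan 1, and its groups overlapped. Ackr1, the chemokine receptor of venules and red cells, was at 0.501, 0.215 and 0.25 CPM in controls and 0.532, 0.166 and 0.75 CPM in Ang II. It shares 361 exon bases with Cadm3 on the same strand, so its level is uncertain. Cxcl10, Cxcl16, Cx3cr1, Ackr4, Ccl25, Ccl27a and Cxcr5 each share bases with a gene on the opposite strand, from 8 for Ccl27a to 552 for Cxcl16. Libraries carry no strand information, so the levels of these genes are uncertain too. The near-identical copies Ccl21a, Ccl21b and Ccl21c, ligands of CCR7, were listed at 0 in every library, and how reads that match several copies were counted is not given in the sources used here.

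Other genes of the pathway were read from lists. Of 28 genes of receptor signalling, 0 passed by edgeR in Ang II against control or in EHP-101 against Ang II. At an unadjusted p below 0.05 there were 9 higher in the former and 10 lower in the latter. Among all tested genes 9.09% were higher in the former and 5.11% lower in the latter at that p. Vav1, an exchange factor of leukocytes, was at 3.95 to 6.82 CPM in Ang II and 2.1 to 2.99 CPM under EHP-101, and Rac2, a leukocyte GTPase, at 6.73 to 10.5 and 3.04 to 4.95 CPM. Of 13 genes that process or present chemokines, 1 passed: Mmp2, a protease that cleaves chemokines and also matrix, rose from 55.9 to 97 CPM in controls to 183 to 275 CPM in Ang II (1.62 ± 0.23, edgeR adjusted p = 0.00987). Mmp9 and Mmp12, proteases of leukocytes, were at 1.45 to 1.9 and 0.665 to 2.55 CPM in Ang II and at 0.569 to 0.761 and 0.482 to 0.804 CPM under EHP-101. Mmp2 also passed in EHP-101 against control (1.42 ± 0.23, edgeR adjusted p = 0.0255).

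Of 18 inducers of chemokine genes, 16 were tested and 0 passed by edgeR in either comparison, with 4 higher in Ang II and 4 lower and 1 higher under EHP-101 at an unadjusted p below 0.05. For these and the adhesion genes the shares of all tested genes at that p are again 9.09% higher in Ang II and 5.11% lower under EHP-101. Il1b, a cytokine that induces CXCR2 ligands, was at 1.63, 1.4 and 0.501 CPM in controls, 4.75, 1.66 and 8.81 CPM in Ang II and 1.06, 0.701 and 0.744 CPM under EHP-101. Tlr2, a receptor for microbial and damage signals, was at 8.02 to 12.2 CPM in Ang II and 4.77 to 6.34 CPM under EHP-101. Of 10 genes of leukocyte adhesion 0 passed by edgeR, with 3 higher in Ang II and 4 lower under EHP-101 at an unadjusted p below 0.05. Selplg, the selectin ligand of leukocytes, was at 5.19 to 8.96 CPM in Ang II and 2.15 to 3.85 CPM under EHP-101. Among 8 relatives outside the symbol rule 0 passed by edgeR in either comparison, with 3 and 1 at an unadjusted p below 0.05. Of all tested genes, 17.6% and 7.22% were at that p in either direction. Ccrl2, an atypical receptor for chemerin, was at 9.72 to 11.4 CPM in Ang II and 10.5 to 13.4 CPM under EHP-101, and Cd74, the receptor for the chemokine-like MIF, was at 110 to 163 CPM in Ang II and 55.7 to 62.3 CPM under EHP-101.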

How the data were processed

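The authors deposited raw read counts per gene for 12 heart libraries. Per the labels, 300 ng of RNA were selected for poly(A), made into libraries with a TruSeq kit that keeps no strand, and read as 50 bp single ends. Per the submitters' processing notes, fastp 0.20.0, HISAT2 2.1.0, featureCounts 2.0.0, edgeR 3.30.0 and the build GRCm38 were used. Symbols and lengths came from GENCODE M21.

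Counts were tested in R 4.3.3 with edgeR 4.0.16: filterByExpr, TMM, a mean per group over all 12 libraries, robust quasi-likelihood F tests (two-sided) for 6 comparisons and Benjamini-Hochberg adjustment over 15336 genes. The script was tested on simulated data. CPM (read counts scaled to a common library size) used TMM-scaled library sizes, and the SE is the absolute log2 fold change divided by the square root of F, so it restates the test. With 3 libraries a group, the smallest p of an exact permutation test is 0.1, so none was used. No 2 libraries were duplicates. The alternatives tried were DESeq2 1.42.0, limma-voom (limma 3.58.1) with and without quality weights, RLE scaling, unscaled library sizes, no low-count filter, a filter at a mean of 1 CPM, a block on the replicate number, fits to the compared groups alone, and each library left out.

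The members, gene lists and tests were chosen with earlier results of these data known. Values per library or as a range, for some or all groups, are given for a set of members. The set holds the members past the threshold and the 8 smallest p-values in Ang II against control and in EHP-101 against Ang II. It also holds the 5 smallest in each other comparison, the 6 highest per length and 10 genes named in advance. Genes of other lists are the 2 with the smallest p in EHP-101 against Ang II, and Mmp2, Cx3cl1, Ccl11, Ccl12, Ccl19, Ccl28 and Cxcr5 were named after their values were seen. Replicate numbers marked no stated pairing. Same-numbered libraries correlated in their deviations from group means at -0.327 to 0.33 over 18 pairs, all 3 above 0.1 only between control and EHP-101, where the blocked fit also called 0 members. Values of 1 member and of 1 adhesion gene are not reported here and not drawn, though both stay in the counts and sums.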

Additional observations from a re-analysis of the deposited data

How the results depend on the processing

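The calls in Ang II against control depended on the setting. Against 2 members in edgeR, DESeq2 called 4, limma-voom 1, limma-voom with quality weights 14, the filter at a mean of 1 CPM 1, the replicate block 1 (Ccr2) and only the 2 groups compared 0. Leaving out 1 library gave 0 to 2 members: 0 without control 1, 2 or 3 or without Ang II 1 or 3, and 1 without EHP-101 3 or losartan 2. Among all genes the 83 calls became 505 with DESeq2, 2617 with quality weights, 51 with limma-voom, 57 with the replicate block and 8 without Ang II 3. For EHP-101 against Ang II, DESeq2 called 5 members and no filter on low counts 1, among 60 and 10 genes. For losartan against Ang II, DESeq2 called 2, quality weights 10 and no filter 1 (Cxcl1), among 108, 598 and 30 genes. For EHP-101 against control, DESeq2 called 3 members among 492 genes and quality weights 1 (Ccl24) among 477. Leaving out 1 library there gave 0 to 1 (Ccl24, without EHP-101 1, among 22 genes). The cause of these differences was not tested. EHP-101 against losartan and losartan against control gave 0 members in every alternative run, and the replicate block changed no call outside Ang II against control.

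No fold change of a member named for its small p-value changed sign under any alternative run. Ccr2 passed in 11 of 21 alternatives, with a log2 fold change of 1.64 to 2.29 in Ang II against control, and Cxcr3 in 12 of 20, with 2.33 to 3.08. Without TMM factors (unscaled library sizes), the median of all genes moved by 0.17 in Ang II against control and by -0.15 in EHP-101 against Ang II. Quality weights gave control 2 a weight of 0.112. Of the 18 pairs of same-numbered libraries, 5 correlated above 0.1, and 6 of 12 libraries correlated best with their own number. Depth limits the low genes: Cxcr3 had 87 reads in all, and of the 30 untested members 14 had no read and 16 had at most 67.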

Other observations

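Ccl28, a mucosal chemokine that binds CCR10 and CCR3, was high in single libraries of 2 groups. It was at 5.05 CPM in control 3 and 4.76 CPM in losartan 3, and at 0.0835 to 0.613 CPM in the other 10 libraries. Of 12877 genes with at least 1 CPM in both libraries, Ccl28 was the only one whose lower value there exceeded the highest of the other libraries by over 5-fold, at 7.77-fold. The next gene, Lrat, was at 1.89-fold. This search was made after the values of Ccl28 had been seen.

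Members lie in clusters on the chromosomes, and neighbours did not all share a pattern. On chromosome 11, Ccl2, Ccl7, Ccl11, Ccl12 and Ccl8 lie within 81.2 kb, and their log2 fold changes in Ang II against control ran from -0.67 for Ccl11 to 0.90 for Ccl8. On chromosome 5, Cxcl9 and Cxcl10 lie within 27.5 kb, with -0.03 and 1.14. The grouping was made after the values had been seen, and it was not tested.

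Among the 25 tested members with a mean of at least 1 CPM, a split made after seeing the data, 10 were lower in EHP-101 against Ang II at an unadjusted p below 0.05 and 0 were higher. For losartan against Ang II the counts were 6 and 0, and for Ang II against control 5 were higher and 0 lower. Those counts are from the main fit. In the separate fit to all genes with a mean of at least 1 CPM, the shares of genes at that p were 4.76% lower for EHP-101, 6.14% lower for losartan and 9.63% higher for Ang II against control. That fit tested 26 members, with 11 lower for EHP-101, 7 lower for losartan and 6 higher for Ang II against control.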
